A study of Mus musculus with 2 samples.

Results

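The genes of motile cilia are described here in poly(A)-selected RNA of mouse brain. The 36 members were taken by symbol from the 43346 genes of each deposited gene table and fall into 3 regulators, 10 dynein arm genes, 3 radial spoke genes, 5 central pair genes and 15 other axonemal genes. All 36 were found. The only group is brain tissue of 1 male mouse of the inbred strain C57BL/6J, adult and aged 10 weeks, with no treatment and no altered allele in the labels. The 2 libraries are labelled technical replicates 1 and 2 of biological replicate 1, so differences between animals are not part of their spread, and whether they share a single extract is not stated. Replicate 2 was made later than the publication that the labels name. The sources used here do not state which part of the brain was taken.

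Ependymal cells line the brain ventricles and carry tufts of motile cilia that move cerebrospinal fluid. A motile cilium is built on a ring of doublet microtubules around a central pair. Dynein arms on the doublets pull each doublet along its neighbour, and radial spokes, the central pair and the nexin-dynein regulatory complex set when each arm is active. Foxj1, a forkhead transcription factor, and factors of the RFX family switch on the genes of this machine, and RFX factors bind the X-box, which joins a pair of half-sites facing each other.

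Promoter sequence was looked at first, because shared RFX half-sites are a feature that the choice of members did not use. RefSeq promoter windows on GRCm38.p6, from 250 bases before to 50 bases after a transcript start, were matched for 31 members in 34 windows. Foxj1, Rsph1, Rsph4a, Cfap54 and Cfap65 had no entry. The RFX half-site GTTGCC, searched on both strands, stood in windows of 13 of 31 members (41.9%) and of 3821 of 27025 genes with a window (14.1%). Within the 60 bases before the start it stood in 8 of 31 members (25.8%) and in 3.46% of all genes. The search was planned for whole windows and the 60-base stretch was not, so this second share is a description. The 8 stretches are shown 5′ to 3′ on the strand of the gene, each ending at the base before the RefSeq start, with the half-site in capitals on either strand.
Ccdc113, chr8:95534040-95534099, plus strand: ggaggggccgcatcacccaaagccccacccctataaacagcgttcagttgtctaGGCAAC
Cfap44, chr16:44394739-44394798, plus strand: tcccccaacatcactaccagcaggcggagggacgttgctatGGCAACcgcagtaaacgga
Dnah10, chr5:124725025-124725084, plus strand: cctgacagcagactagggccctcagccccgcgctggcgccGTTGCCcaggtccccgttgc
Drc1, chr5:30281333-30281392, plus strand: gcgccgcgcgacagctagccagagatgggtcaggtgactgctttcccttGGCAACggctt
Dynlrb2, chr8:116504955-116505014, plus strand: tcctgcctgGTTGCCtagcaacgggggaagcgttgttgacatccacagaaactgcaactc
Hydin, chr8:110266917-110266976, plus strand: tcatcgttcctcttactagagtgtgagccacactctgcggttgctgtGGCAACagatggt
Spag6, chr2:18698962-18699021, plus strand: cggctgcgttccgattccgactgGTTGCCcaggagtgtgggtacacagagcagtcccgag
Tekt1, chr11:72361883-72361942, minus strand: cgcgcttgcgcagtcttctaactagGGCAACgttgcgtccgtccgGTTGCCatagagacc

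Of the radial spoke genes only Rsph9 had a window, and it held none of these stretches. The stretches come from 2 dynein arm genes, 2 central pair genes and 4 other axonemal genes. By mean TPM they spread widely, from 0.01 and 0.31 TPM (a level per transcript length, with an equal total in both libraries) in replicates 1 and 2 for Dnah10 to 1.27 and 9.40 TPM for Drc1. Spag16, Rfx2, Rfx3, Tekt4 and Ccdc153 held the half-site elsewhere in the window. Among 50 other motile axoneme genes with a window, 23 (46%) held the half-site and 12 (24%) held it in the 60 bases before the start. Other lists held it as well, in 14 of 35 genes of intraflagellar transport and primary cilium (40%), 4 of 10 of the multiciliation programme (40%), 6 of 10 of dynein arm assembly (60%) and 3 of 8 of choroid plexus (37.5%). In the 60 bases before the start it stood in 2 of 35, 0 of 10, 2 of 10 and 1 of 8 of these. Fewer held it among ependymal genes outside the axoneme (2 of 12, 16.7%), other RFX factors (1 of 5, 20%) and germ cell markers (0 of 14). In the 60 bases these were 2 of 12, 0 of 5 and 0 of 14. The forkhead motif TGTTTAC, on both strands, stood in 2 of 31 members (6.45%), Ak7 and Cfap43, and in 4.05% of all genes. A match is a description of letters and not a bound site.

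**Figure D1:**
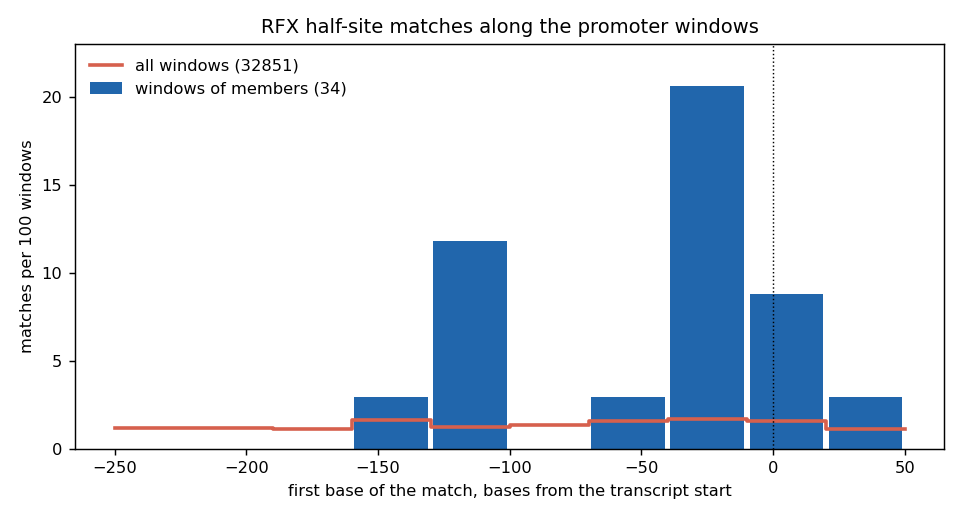
Matches of GTTGCC on either strand per 100 promoter windows (vertical) by the position of the first base of the match relative to the RefSeq start (horizontal, bins of 30 bases). Bars are the 34 windows of members and the line is all 32851 windows; the member bar from -40 to -10 stands at 20.6 against 1.71 for all windows.

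An X-box written as GTTNCC, a spacer of 0 to 3 bases and GGNAAC was in 0 of 31 members and in 0.936% of all genes. After the sequences had been read, a shorter facing pair was searched as well, GTTGC, a spacer of 2 to 5 bases and GCAAC, which overlaps the half-site and is the same on both strands. It stood in 6 of 31 members (19.4%) and in 136 of 27025 genes (0.503%). Since it was chosen on some of these sequences, its share in the members is a description. The pairs of 5 of these members are shown with up to 8 bases on each side and both arms in capitals.
Cfap44, chr16:44394764-44394793, plus strand: ggagggacGTTGCtatgGCAACcgcagtaa
Dynlrb2, chr8:116504956-116504984, plus strand: cctgcctgGTTGCctaGCAACgggggaag
Hydin, chr8:110266948-110266976, plus strand: actctgcgGTTGCtgtgGCAACagatggt
Rfx2, chr17:56831102-56831132, minus strand: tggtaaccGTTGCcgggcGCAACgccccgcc
Tekt4, chr17:25471546-25471574, plus strand: gtgaccctGTTGCtcaGCAACaggaggca

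The spacer was 3 bases in Dynlrb2 and Tekt4, 4 in Cfap44 and Hydin and 5 in Rfx2. The pair of Rfx2 began at position -116. The other 4 of these pairs began between positions -51 and -21. Rfx2 is itself an RFX factor.

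The libraries held 18302506 and 17828479 counts and stood far apart. Of 16320 genes whose counts in both libraries sum to 10 or more, 9502 differed by a two-sided exact binomial test on rounded expected counts (adjusted p under 0.05 and at least 2-fold, sizes scaled by TMM). This compares 2 libraries and not conditions. Of these genes, 34.5% were called higher in replicate 2 and 23.8% lower with TMM sizes. With library totals as sizes, which move every log2 ratio by 0.61, these shares were 43.4% and 7.83%. The log2 count ratio followed the GC content of the transcripts, with a Spearman correlation of 0.90 over 16249 genes that share the same 2 libraries.

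As a group the motile cilia genes were detected at low levels. They summed to 53.2 TPM and 3528 counts in replicate 1 and to 126.1 TPM and 3612 counts in replicate 2. The median member stood at 0.57 and 1.82 TPM. At least 1 TPM was reached by 12 members in replicate 1, by 25 in replicate 2, by 11 in both and by 10 in neither. The order of the members was only partly shared, with a Spearman correlation of 0.46 between their TPM in the libraries (n = 36). In bulk tissue, fewer ciliated cells and less RNA per cell cannot be told apart.

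By TPM, 29 members were higher in replicate 2 and 7 lower. Of all 16320 genes tested, 12013 were higher by TPM and 4284 lower. By the count test 18 members were higher, 6 lower and 11 not called, and Tekt4, with 0 and 9 counts, was too low to test. Library totals gave 19 higher and 2 lower (all tested genes: 43.4% and 7.83%). The median log2 count ratio (TMM) of the 35 tested members was 1.08, against 0.09 over all genes tested, and on log2(TPM + 1), which understates low genes, it was 0.75 for all 36 against 0.71. Both medians were the same to 2 decimals with the members at 0 counts set to 3 counts. This setting could not move them. Foxj1 and Mia stay above both medians, and Tekt4, not tested on counts, lies below 0.75 either way. The 18 of 35 tested members called higher stand beside 34.5% of all genes, and the 6 called lower beside 23.8%. For single members, ratios and intervals below are of TPM. Calls and adjusted p-values are of counts scaled by TMM unless totals are named, so the 2 can disagree.

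**Figure D2:**
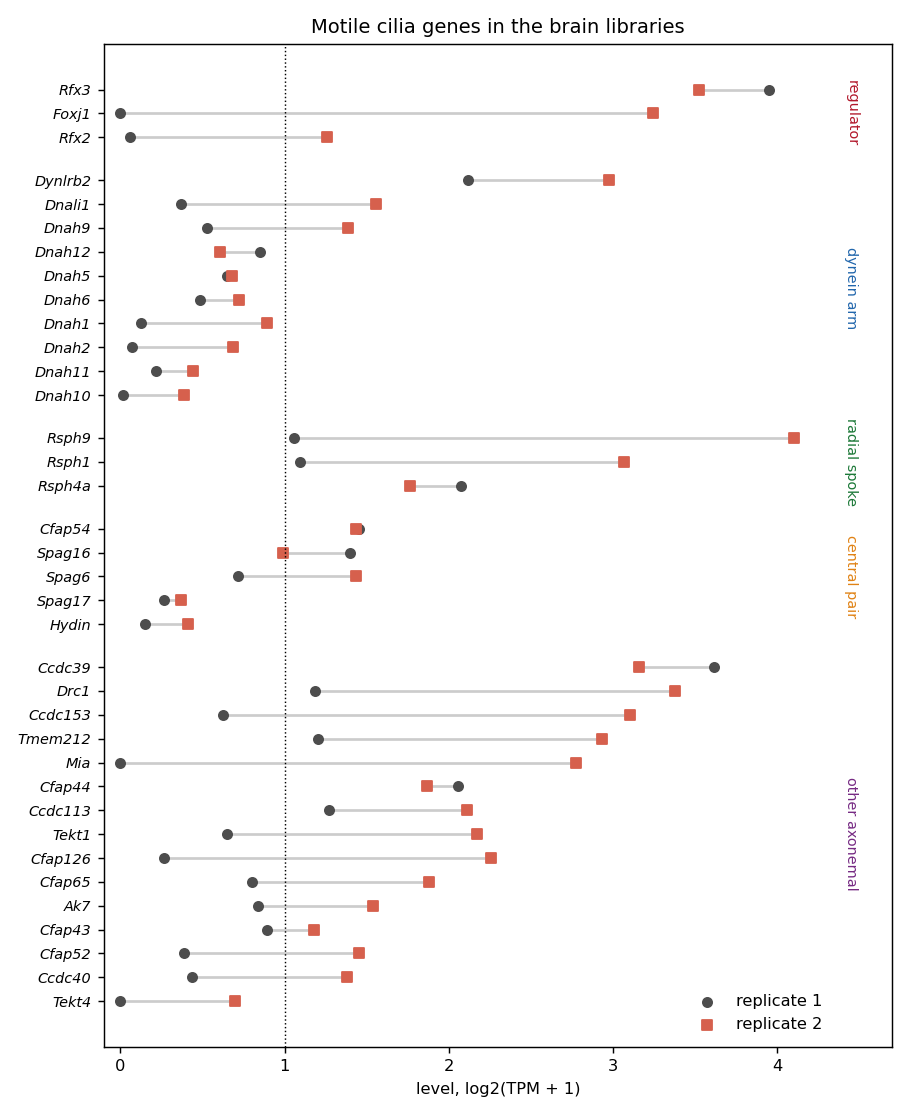
Level of each of the 36 members as log2(TPM + 1) in replicate 1 (circles) and replicate 2 (squares), grouped by role and ordered by mean TPM. The dotted line is 1 TPM; Foxj1, Tekt4 and Mia stand at 0 in replicate 1, and Rsph9 is the highest point of replicate 2 at 16.2 TPM.

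The 3 regulators went different ways. Foxj1, the master regulator of motile ciliogenesis (chromosome 11, positions 116330704 to 116335399, minus strand, GRCm38), had 0 counts in replicate 1 and 224 in replicate 2, or 0 and 8.48 TPM. Against the 3 counts that a count of 0 allows, it was at least 99.1-fold higher in replicate 2 (exact binomial test, Benjamini-Hochberg adjusted p = 6.0e-50), and the exact 95% counting interval of its TPM ratio, which also covers the counting error of replicate 2, begins at 80.0. The single annotated transcript of Foxj1 has 61.4% GC, the most of any member.

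Rfx2, an RFX factor of multiciliated cells and of the testis, had 2 and 47 counts, or 0.04 and 1.39 TPM. Its TPM ratio was 34.8, with a counting interval (exact, 95%) of 9.10 to 295 (exact binomial test, adjusted p = 2.2e-08). Rfx3, which serves both motile and primary cilia, was the most abundant member in replicate 1 at 14.5 TPM and stood at 10.5 TPM in replicate 2, a mean of 12.5 ± 2.81 TPM (SD, n = 2). Its counts were 1821 and 904, and its ratio was 0.725 (interval 0.669 to 0.786). With TMM sizes Rfx3 was called lower (exact binomial test, adjusted p = 1.3e-171), and with library totals the fold limit was not passed.

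Rfx3 alone held 1821 of the 3528 member counts in replicate 1 and 904 of 3612 in replicate 2. It has 41.0% GC, near the lower end of the members. Of the 6 other RFX factors and partners, 2 were called higher and 1 lower with TMM sizes (all tested genes: 34.5% and 23.8%). None was called lower with totals (all tested genes: 7.83%). Rfxap, a partner in the complex that controls MHC class II genes, stood at 7.69 and 27.7 TPM. Rfx7 stood at 12.5 and 9.54 TPM and Rfx1 at 0.21 and 7.27 TPM.

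Dynein arm genes had medians of 0.345 and 0.63 TPM, in replicate 2 the lowest of the 5 roles. Of 10 genes, 5 were called higher in replicate 2 and 1 lower, under both scalings, beside 34.5% and 23.8% of all tested genes with TMM sizes and 43.4% and 7.83% with totals. Dynlrb2, a light chain shared by dynein complexes, was the most abundant at 3.33 and 6.86 TPM, a mean of 5.10 ± 2.50 TPM (SD, n = 2). It rested on 15 and 23 counts, with a TPM ratio of 2.06 (interval 1.03 to 4.25). On TMM-scaled counts its log2 ratio was 0.03, and it was not called (exact binomial test, adjusted p = 1.0).

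Dnali1, an inner arm light intermediate chain, stood at 0.29 and 1.94 TPM (8 and 41 counts). It was higher in replicate 2, with a ratio of 6.69 (interval 3.10 to 16.5; exact binomial test, adjusted p = 0.00082). Its exons overlap those of Gnl2 on the opposite strand, which had 624 and 857 counts, and the sources used here do not state whether counting used strand.

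The 8 heavy chains, the motors themselves, are very large proteins, and together they held 2.52 and 5.52 TPM. None reached 1 TPM in replicate 1, and only Dnah9, an outer arm chain, did so in replicate 2, at 0.44 and 1.61 TPM (39 and 124 counts). Dnah1, an inner arm chain, stood at 0.09 and 0.86 TPM (17 and 118 counts). Dnah2, also of the inner arm, stood at 0.05 and 0.61 TPM (9 and 66 counts), and Dnah10 at 0.01 and 0.31 TPM (2 and 44 counts). These 4 chains were called higher in replicate 2.

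Dnah5, an outer arm chain often mutated in primary ciliary dyskinesia, stood at 0.57 and 0.60 TPM (127 and 101 counts) and was not called. Dnah6 stood at 0.40 and 0.65 TPM, and Dnah11, also of the outer arm, at 0.16 and 0.36 TPM, and neither was called. Dnah12 was the single chain called lower, at 0.80 and 0.52 TPM (61 and 28 counts; exact binomial test, adjusted p = 2.0e-07). Its TPM ratio was 0.650, with an interval of 0.400 to 1.03 that includes 1, while its log2 ratio of TMM-scaled counts was -1.68. The 4 chains called higher have 50.5 to 54.2% GC, and Dnah12 has 41.9%.

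Of the 3 radial spoke genes, 2 were called higher and 1 lower with TMM sizes (all tested genes: 34.5% and 23.8%). Rsph9, a spoke head protein, stood at 1.08 TPM in replicate 1 and at 16.2 TPM in replicate 2, the highest level of any member there (mean 8.63 ± 10.7 TPM, SD, n = 2). Its 9 and 136 counts gave a ratio of 14.98 (interval 7.66 to 33.5; exact binomial test, adjusted p = 3.4e-20). Rsph1, of the spoke head as well, stood at 1.13 and 7.36 TPM (16 and 78 counts) and was called higher.

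Rsph4a, the third spoke head gene, went the other way, at 3.21 and 2.40 TPM (138 and 90 counts; ratio 0.748, interval 0.567 to 0.982). It was called lower with TMM sizes (exact binomial test, adjusted p = 1.7e-09) and not with totals. In GC content Rsph9 has 55.4%, Rsph1 53.2% and Rsph4a 43.8%.

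Central pair genes were called higher in none of 5 cases and lower in 2 with TMM sizes (all tested genes: 34.5% and 23.8%). With totals they were called in 1 case each (all tested genes: 43.4% and 7.83%). Cfap54 was the most abundant by mean, at 1.74 and 1.70 TPM, a mean of 1.72 ± 0.0283 TPM (SD, n = 2). Its counts were 181 and 125, called lower with TMM sizes (exact binomial test, adjusted p = 6.7e-11) and not with totals, while its TPM ratio was 0.977 (interval 0.772 to 1.23). The TMM-scaled count and the TPM, which are scaled differently, thus gave different pictures for this gene.

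Spag16 stood at 1.64 and 0.99 TPM (51 and 24 counts; ratio 0.604, interval 0.355 to 0.999) and was called lower with both scalings (exact binomial test with TMM sizes, adjusted p = 3.3e-06). Spag6 stood at 0.64 and 1.70 TPM (21 and 29 counts), with a TPM ratio of 2.66 (interval 1.46 to 4.90). On TMM-scaled counts its log2 ratio was -0.12, and it was not called (exact binomial test, adjusted p = 0.92). Spag6 has a close copy, Spag6l, at 3.79 and 5.19 TPM, and the deposited posterior SD of the count was 0 for both genes in both libraries. Hydin, a very large protein of a central pair projection, stood at 0.11 and 0.33 TPM (25 and 55 counts), called higher only with totals. Spag17 stood at 0.20 and 0.29 TPM (22 and 24 counts) and was not called.

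Among the 15 other axonemal genes 14 were tested, with 9 called higher and 1 lower (all tested genes: 34.5% and 23.8%). None was called lower with totals (all tested genes: 7.83%). Ccdc39, a ruler protein that sets the spacing of arms and spokes along the doublet, was the most abundant by mean at 11.3 and 7.91 TPM, a mean of 9.58 ± 2.36 TPM (SD, n = 2). Its 555 and 294 counts were called lower with TMM sizes (ratio 0.703, interval 0.608 to 0.811; exact binomial test, adjusted p = 1.1e-48). Its exons overlap those of Ttc14 on the opposite strand, a gene of 5607 and 2282 counts. Ccdc40, the partner of Ccdc39 in the same ruler, stood at 0.35 and 1.60 TPM (5 and 34 counts) and was called higher. The partners differ in GC content, with 39.9% in Ccdc39 and 54.0% in Ccdc40.

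Drc1, of the nexin-dynein regulatory complex, stood at 1.27 and 9.40 TPM (42 and 234 counts) and was called higher. The tektin Tekt1, a filament protein inside the doublet, stood at 0.57 and 3.51 TPM and was called higher. Tekt4, another tektin known best from sperm tails, had 0 and 9 counts (0 and 0.62 TPM). Cfap126, a ciliary base protein also called Flattop, had 1 and 33 counts (0.20 and 3.78 TPM) and was called higher.

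Ccdc153, often used as a marker of ependymal cells, stood at 0.54 and 7.59 TPM (7 and 74 counts), and Tmem212, another such marker, at 1.30 and 6.63 TPM (10 and 38 counts). Both were called higher. Mia, a small secreted protein and not a part of the axoneme, had 0 and 24 counts (0 and 5.84 TPM). Against 3 counts it was at least 14.5-fold higher in replicate 2 (exact binomial test, adjusted p = 1.3e-05), and its counting interval begins at 10.9.

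Cfap52 stood at 0.31 and 1.74 TPM and Cfap65 at 0.74 and 2.67 TPM, and both were called higher. Cfap44 stood at 3.16 and 2.65 TPM, and Cfap43, which with Cfap44 forms a tether of the inner arms, at 0.86 and 1.26 TPM. Ccdc113 stood at 1.41 and 3.32 TPM, and Ak7, an adenylate kinase of the cilium, at 0.79 and 1.90 TPM. These 4 genes were not called. The deposited Cfap43 gene includes a transcript that GENCODE M21 names Itprip-201, with 4.52% and 26.7% of its level, and without it Cfap43 stood at 0.82 and 0.92 TPM.

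The direction of the members followed GC content. Over the 36 members the Spearman correlation of the log2 count ratio with GC content was 0.91. Of 17 members below 50% GC, 2 were called higher and 6 lower, beside 1.83% and 45.3% of all tested genes on that side. Of 19 members at 50% or more, 16 were called higher and 0 lower, beside 68.4% and 1.23%.

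Against the median of all tested genes in the same class of 5 points of GC, 26 members had a higher log2 count ratio and 10 a lower. The median difference was 0.53. On log2(TPM + 1) the class medians were of genes at a mean of 1 TPM or more, which 24 of the 36 members reach. There 14 members were above and 22 below, with a median of -0.12. The 2 scales, which also differ in the genes compared, thus gave opposite signs. No direction is given for the members beyond that of their GC class. In the class of 50 to 55% GC, 13 of 15 members were called higher, beside 47.6% of all tested genes. From 55 to 60% it was 2 of 3, beside 90.7%. From 45 to 50%, 2 of 11 were called higher and 1 lower, beside 3.33% and 15.7%. From 40 to 45%, 4 of 5 were called lower, beside 74%. Foxj1 was the only member from 60 to 65%, where 94.3% of all tested genes were called higher as well. Ccdc39 was the only member from 35 to 40%, where 92% were called lower as well. On the count scale Foxj1, Mia and Cfap126 stood farthest above the median of their class, and each rests on 0 or 1 count in replicate 1. Whether GC content plays a part in these differences was not tested.

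**Figure D3:**
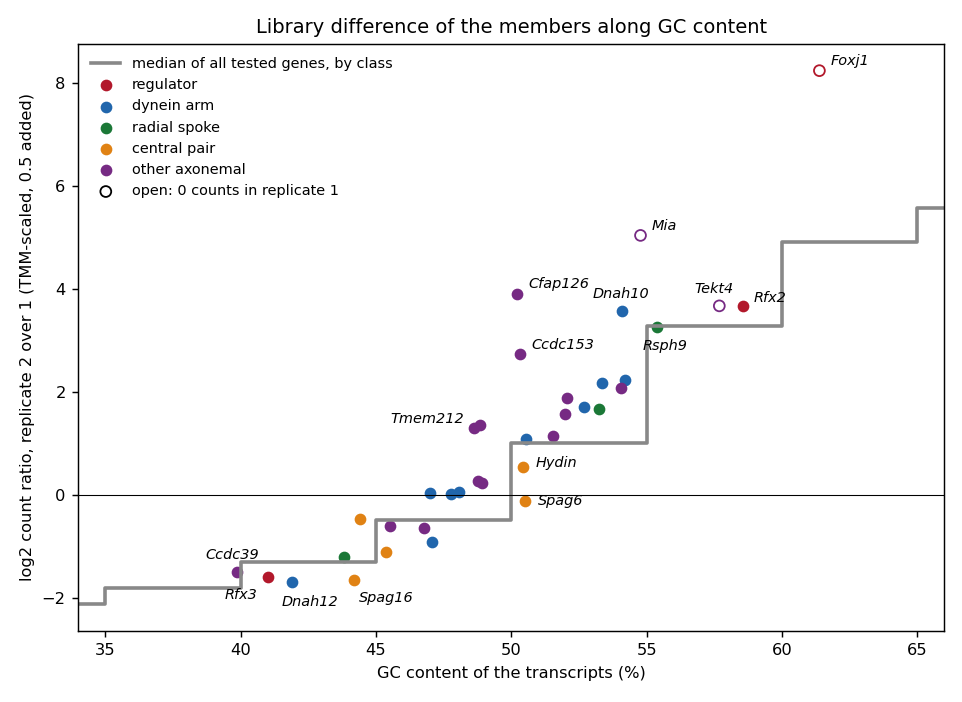
Log2 count ratio of replicate 2 over replicate 1 (vertical, TMM-scaled, 0.5 added to each count) against the GC content of the transcripts (horizontal, %) for the 36 members, coloured by role. The grey steps are the medians of all tested genes in classes of 5 points of GC, and open circles mark members with 0 counts in replicate 1; members below 45% GC lie under 0, and those above 51% lie over 0.

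Genes upstream of the members ranged from 0 counts in both libraries (Cdc20b and Foxn4) to 282 and 162 counts (E2f5) and 39 and 376 (E2f4). Of 13 genes of the multiciliation programme, which starts centriole amplification before Foxj1 acts, the medians were 0.12 and 0.73 TPM. Of its 10 tested genes, 3 were called higher and 3 lower (all tested genes: 34.5% and 23.8%). None of the programme was called lower with totals (all tested genes: 7.83%). Its most abundant members by mean TPM, E2f5 (12.3 and 9.39 TPM) and E2f4 (1.5 and 19.2 TPM), are cell cycle factors used widely outside ciliated cells. Plk4, the kinase that starts centriole duplication, stood at 6.54 and 4.55 TPM. Mcidas, the geminin-family factor near the head of the programme, had 2 and 4 counts. Gmnc, of the same family and acting before it, had 47 and 31 counts (0.84 and 0.73 TPM). Gmnc was called lower with TMM sizes and not with totals.

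Other genes of the motile axoneme were called in both directions too. Of 59 such genes 55 were tested, and 22 were called higher and 11 lower (all tested genes: 34.5% and 23.8%). With totals 25 and 6 were called (all tested genes: 43.4% and 7.83%). Their medians were 1.11 and 2.82 TPM. Dnal1, an outer arm light chain, stood at 52.5 and 43.6 TPM, above every member, and Nme5 at 23.5 and 20.9 TPM. Dnal4, a light chain, stood at 1.11 and 40.8 TPM, and Cfap69 at 13.5 and 7.65 TPM. Their log2 count ratio had a Spearman correlation of 0.93 with GC content (n = 58).

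Of 14 dynein arm assembly genes found, which fold the arms in the cytoplasm, 12 were tested. With TMM sizes 8 were called higher and 1 lower (all tested genes: 34.5% and 23.8%). Under totals none was called lower (all tested genes: 7.83%). Cfap298 stood at 8.72 and 38.6 TPM and Ruvbl1, a chaperone ATPase of many complexes, at 4.34 and 34.2 TPM. Pih1d1 had 2 and 323 counts (0.16 and 34.7 TPM), and Lrrc6 stood at 6.81 and 5.79 TPM. These genes have a median of 55.7% GC, above the 50.3% of the members.

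Genes of intraflagellar transport and of the primary cilium, which neurons and glia also carry, were more abundant than the motile genes. Their 40 members had medians of 6.74 and 14.99 TPM. With TMM sizes 14 were called higher and 8 lower (all tested genes: 34.5% and 23.8%). With totals 18 and 2 were called (all tested genes: 43.4% and 7.83%). Kifap3, a subunit of the kinesin-2 motor, stood at 173 and 145 TPM and Ift20 at 19.7 and 97.4 TPM. Ift22 stood at 3.15 and 70.5 TPM and Ift74 at 32.9 and 18.6 TPM.

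**Figure D4:**
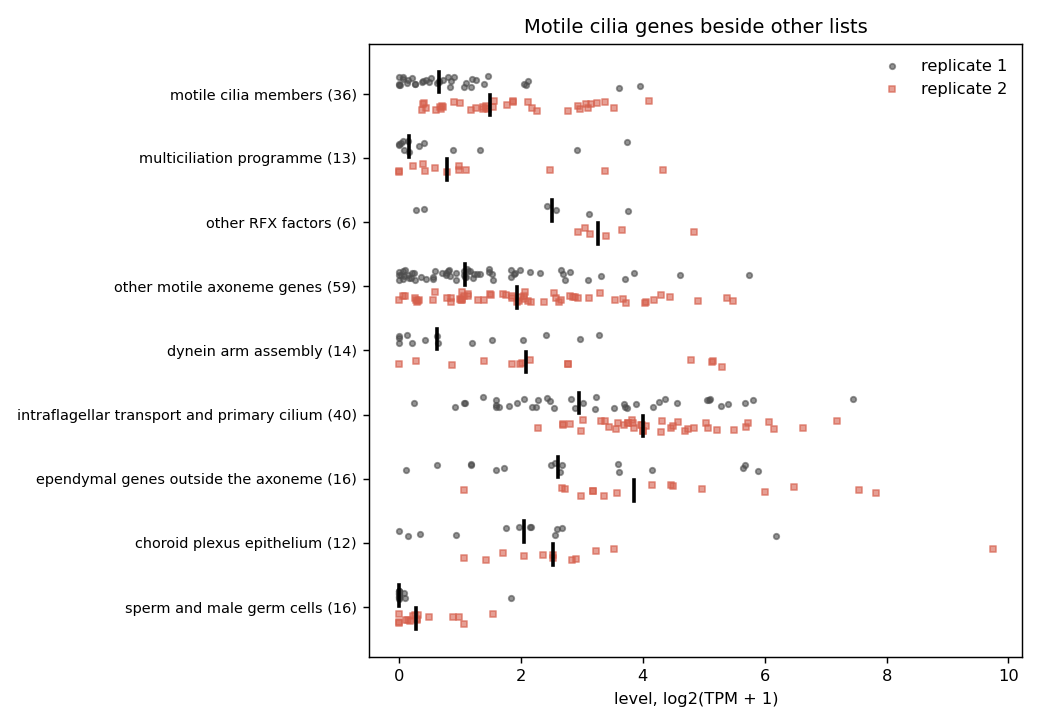
Level of each gene as log2(TPM + 1) in replicate 1 (circles) and replicate 2 (squares) for the members and the 8 other lists, with the number of genes in brackets. Black bars are medians; that of the members stands at 0.57 and 1.82 TPM, and that of the genes of intraflagellar transport and primary cilium at 6.74 and 14.99 TPM.

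The genes listed as ependymal outside the axoneme all had counts in both libraries. Whether their RNA came from ependyma was not tested. Of 16, 14 reached 1 TPM in replicate 1 and 16 in replicate 2, with sums of 224 and 708 TPM. With TMM sizes 5 were called higher and 1 lower (all tested genes: 34.5% and 23.8%), and with totals 9 and 0 (43.4% and 7.83%). The most abundant by mean TPM were Nnat (50.4 and 226 TPM) and S100b (48.8 and 185 TPM), both of which other brain cells express too. Pltp, a lipid transfer protein, stood at 2.02 and 63.5 TPM, and Cd24a, a surface marker of ependyma, at 16.7 and 10.9 TPM.

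Choroid plexus epithelium also carries tufts of cilia. Of its 12 marker genes, 4 were called higher and 1 lower under both scalings. Over all tested genes the shares were 34.5% and 23.8% with TMM sizes and 43.4% and 7.83% with totals. The 12 genes had sums of 101 and 909 TPM. Ttr, the thyroid hormone carrier, stood at 72.0 and 856 TPM and made up most of both sums. Folr1, a folate receptor, had 0 and 74 counts, Otx2 stood at 5.39 and 6.46 TPM and Prlr at 4.99 and 3.14 TPM. The part of choroid plexus in the members' values was not tested, and the tables do not tell which cell type any member's RNA came from.

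Male germ cells share most axonemal genes with ependyma. Of 16 germ cell markers, 13 were at 0 counts in replicate 1 and 3 in replicate 2. Ddx4, a germline helicase, held 99 and 55 counts (2.58 and 1.91 TPM). The 15 others summed to 0.13 and 4.7 TPM, or 4 and 38 counts. The protamine gene Prm1 had 0 and 3 counts, and the transition protein gene Tnp1 had 0 and 3.

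The transcript tables placed some member levels on non-coding models. Of the members, 14 have 1 deposited transcript and 22 have several, up to 10 in Cfap54. For 21 of the latter a level was given in both libraries, and the leading transcript differed between libraries in 9: Ccdc40, Cfap126, Cfap43, Cfap44, Cfap65, Dnah11, Dnah2, Dnah6 and Rsph4a. Transcripts annotated as protein-coding held under 50% of the level in 6 genes in replicate 1 and in 5 in replicate 2. These include Dnah12 in both libraries and Rsph4a in replicate 1, where the rest lay on transcripts that GENCODE M21 does not hold and whose type is not known here.

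Cfap65 showed the largest share on a retained-intron model, Cfap65-203, with 89.3% in replicate 1, while the coding Cfap65-201 led replicate 2 with 59.0%. In Ccdc40 the retained-intron model Ccdc40-205 led replicate 1 with 35.4% and the processed transcript Ccdc40-204 led replicate 2 with 56.6%. Cfap44-204, a processed transcript of 488 bases, led replicate 1 with 42.1%, and the coding Cfap44-201 led replicate 2 with 38.6%. Spag16-206, also a processed transcript, led both libraries, with 54.6% and 50.9%.

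In Dnah11, the nonsense-mediated decay model Dnah11-204 led replicate 2 with 53.1%, where the coding Dnah11-201 had led replicate 1 with 69.3%. In Rsph4a, 92.8% of the level in replicate 1 lay on a transcript that GENCODE M21 no longer holds, and 100% in replicate 2 on Rsph4a-201. In Cfap126, Cfap126-202 of 528 bases took 100% in replicate 1 from 1 count, and Cfap126-201 of 1034 bases led replicate 2 with 91.7%. Rfx3 was steadier: Rfx3-202, of 9146 bases, held 96.7% and 86.2%. These shares are estimates on low counts, as in Ccdc40 with 5 and 34 counts, and a level per length depends on them.

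**Figure D5:**
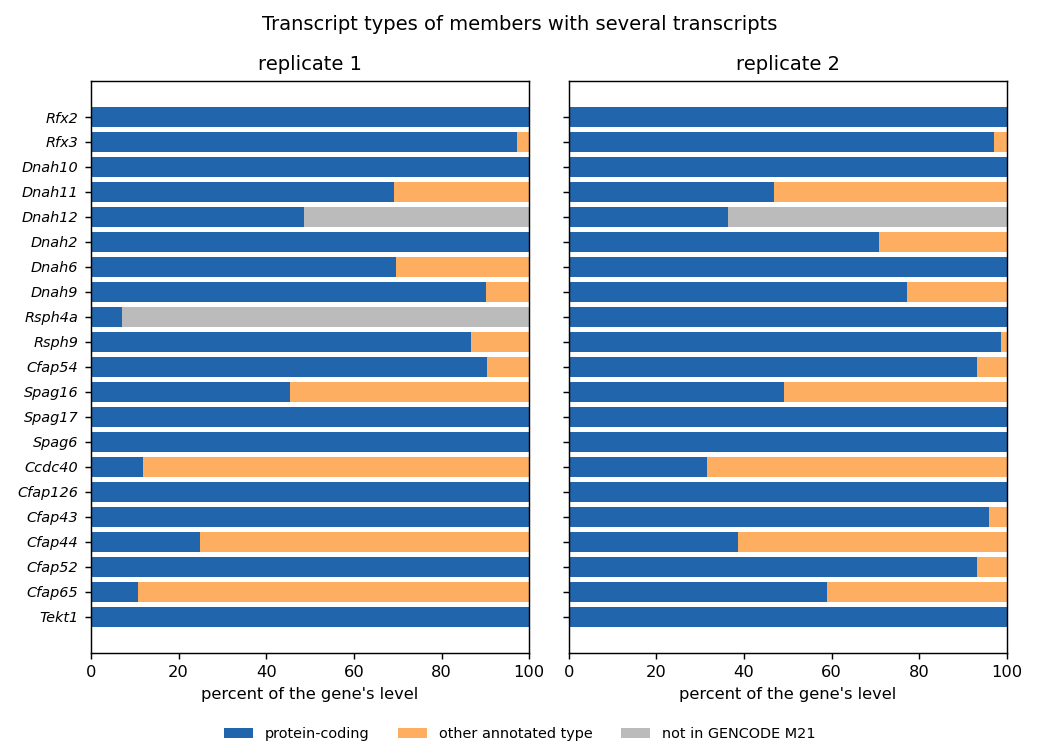
Percent of each gene's level (horizontal) held by protein-coding transcripts, other annotated types and transcripts not in GENCODE M21, for the 21 members with several transcripts and a level in both libraries. Replicate 1 is on the left and replicate 2 on the right; the coding share of Cfap65 is 10.7% and 59.0%.

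Exons of 15 members overlap those of another gene, in 4 cases a protein-coding gene on the opposite strand: Ccdc39 with Ttc14, Dnali1 with Gnl2, Dnah11 with Cdca7l (8 and 18 counts) and Spag17 with Wdr3 (268 and 336 counts). Without these 4 genes and Cfap43, an alternative added after the data were seen, 17 of 31 members were called higher and 5 lower. The shares over all tested genes were 34.5% and 23.8%.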

How the data were processed

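Poly(A) RNA-seq of brain from 1 mouse was analysed in 2 libraries, technical replicates per the labels. The deposited gene and transcript tables hold expected counts, estimates that need not be whole. They also hold TPM and FPKM, which the authors deposited for genes and transcripts. The percent of a gene's level on each transcript was deposited in the transcript tables. Per the deposited listings the build is mm10 with GENCODE M4. The aligner and quantifier were not given in the sources used here.

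Depth was 18302506 and 17828479 counts, so a count of 0 allows a share of 1.64e-05% and 1.68e-05% (3 counts). Rows that name no mouse gene held 0 and 1 counts and were left out. Symbols, coordinates and transcript sequences were taken from GENCODE M21 on the same build, by identifier without version; GC content is the mean over transcripts weighted by TPM. Promoter windows came from RefSeq (GRCm38.p6).

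Expected counts were rounded and compared by a two-sided exact binomial test with TMM sizes (edgeR 4.0.16, R 4.3.3) where the counts of both libraries sum to 10 or more, with Benjamini-Hochberg adjustment over all 16320. A call needs an adjusted p under 0.05 and 2-fold (0.5 added to each count). With 1 library on each side, neither edgeR's quasi-likelihood test nor that of DESeq2 could be fitted. P-values and exact Clopper-Pearson intervals (95%) cover counting error only, without molecular identifiers. The intervals are of the TPM ratio, and the p-values are of the scaled counts. Log2 ratios are of TPM + 1, replicate 2 over replicate 1. The test was checked on simulated data with counting error only, few genes changed and the size ratio known. Libraries that differ along GC content were not simulated, so the check does not bear on the calls made here. Python 3.11.15, pandas 2.3.3 and scipy 1.17.1 were used.

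Members and lists were chosen with earlier results of these data known. Full statistics go to at most 3 members per role, those of highest mean TPM and of highest and lowest log2 ratio. Of the other lists the 2 genes of highest mean TPM and those of highest and lowest ratio are named, and a few further markers were chosen after their values were seen. Alternatives covered scaling, count minimum, fold limit, posterior means, FPKM, pseudocount, GC class and each library alone. Protein sequences were not used here, and the sequence of 1 facing pair is not reported here.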

Additional observations from a re-analysis of the deposited data

How the results depend on the processing

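The count of members called higher in replicate 2 stayed within 1.5 times of 18 under every alternative run. That called lower was 2 with library totals in place of TMM. Over all tested genes the share called lower was 23.8% with TMM and 7.83% with totals. With each library alone the members at 1 TPM or more numbered from 12 to 25. The median log2 ratio of the members, 0.75, was 1.69 with a pseudocount of 0.1, 0.49 with FPKM, 0.60 with TMM-scaled CPM, 0.96 for members at a mean of 1 TPM or more and 0.84 without the overlapping members and Cfap43. As a difference from genes of the same GC class it was -0.12 on log2(TPM + 1) and 0.53 on counts. The first is taken from genes at a mean of 1 TPM or more and understates members below that level, and the second from all tested genes. The GC difference on log2(TPM + 1) also reversed the group medians of regulators (-0.48), dynein arms (-0.40) and the central pair (-0.43), the last also being -0.25 with TMM-scaled CPM and -0.02 at 1 TPM or more. Among members called with TMM sizes, it reversed Foxj1 (-0.48), Rfx2 (-1.83), Dnah1 (-0.83), Dnah2 (-0.98), Dnah9 (-0.74), Dnah10 (-1.22), Dnali1 (-0.41), Ccdc40 (-0.65), Tekt1 (-0.08), Cfap65 (-0.52), Dnah12 (0.06) and Ccdc39 (0.26). Among members not called or not tested, it changed the sign of Tekt4 (-2.33), Hydin (-1.34), Spag6 (-0.88), Dnah5 (-0.38), Dnah11 (-0.18), Dnah6 (-0.17) and Cfap43 (-0.13). The GC difference on counts reversed, of the called members, only Ccdc39 (0.30), Rsph4a (0.12) and Rsph9 (-0.0045). Of those not called, the sign changed on counts for Spag6 (-1.13), Hydin (-0.46), Dnah5 (-0.43) and Cfap43 (-0.16). With posterior mean TPM Cfap54 reversed (0.11), and Cfap44, not called, changed sign (0.05). Other members not called changed sign with TMM-scaled CPM: Dnah5 (-0.78), Cfap43 (-0.45), Spag17 (-0.25) and Spag6 (-0.06). Dnah5 also did so with FPKM (-0.08). The cause was not tested. No paired analysis was possible because both libraries are 1 group. Low counts limit the precision: 3 members had 0 counts in replicate 1.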
